A study of Arabidopsis thaliana with 6 samples.

Results

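The flavonoid and anthocyanin pathway genes described here are 10 of the 33602 gene models counted in leaf pieces of Arabidopsis thaliana, chosen by locus. The reference annotation lists CHS, CHI and F3'H under their transparent testa names TT4, TT5 and TT7, and the others under the names used here. They are 5 early genes (CHS, CHI, F3H, F3'H, FLS1), 3 late genes (DFR, LDOX, UF3GT) and 2 regulators (PAP1, TT8). RNA was depleted of rRNA and sequenced from pieces of young rosette leaves, at Boyes stage 1.13, from untreated plants kept on soil between 18 and 21 °C, with light reaching 90 µE. The 3 groups of 2 libraries are FLV border (white leaf margins of flv/dot4 mutants, a SALK T-DNA stock), WT border (the same region, green, in Col-0) and WT centre (the leaf centre of Col-0). All FLV border libraries come from a single insertion stock. The labels do not say whether the libraries of a group are separate plants, so the p-values measure only the spread between these libraries. In bulk leaf pieces, fewer cells of a type and less RNA per cell cannot be told apart.

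Flavonoids are made from phenylalanine. The general phenylpropanoid enzymes supply coumaroyl-CoA, from which chalcone synthase (CHS) and chalcone isomerase (CHI) make the first flavonoids, and F3H and F3'H add hydroxyl groups. FLS1 then draws the intermediates towards flavonols, the ultraviolet-absorbing pigments of green leaves, while DFR, LDOX and glycosyltransferases such as UF3GT lead to the red and purple anthocyanins. In Arabidopsis the early genes are mainly driven by the MYB factors MYB11, MYB12 and MYB111, and the late genes by a complex of a MYB such as PAP1, a bHLH such as TT8, and TTG1.

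The tables hold raw counts, 20448315 to 33214552 per library. DOT4, the gene disrupted in the mutant, goes against the label: the libraries labelled FLV border held 502 and 616 of its reads, WT border 18 and 52, and WT centre 5 and 6. Whether the counted reads lie before or behind the insertion is not given, so the groups are named below by their labels. WT centre 1 stands apart, with 70.9% of its reads mapped and 30.3% of its counts in models under 200 bases, against 83.3 to 88.9% and 4.68 to 8.57% in the other 5 libraries. Photosynthetic mesophyll genes were abundant in every library: 5 marker genes summed to 4823 and 10306 CPM (counts divided by the TMM-scaled library size, per 1000000) in the FLV border libraries, 22187 and 32580 in those of WT border, and 30877 and 108529 in those of WT centre. Genes of proanthocyanidin synthesis in the seed coat, a tissue that leaf pieces should lack, were near 0, with 7 genes summing to 0.959 to 3.38 CPM. The late genes DFR, LDOX and UF3GT were also low, with 3 genes summing to 0.178 to 2.16 CPM. These sums cover unlike numbers of genes, and their order varied. The late sum was the higher in FLV border 1 (2.16 against 0.959 CPM) and the lower in WT centre 1 (0.178 against 3.38 CPM).

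In the TAIR10.1 reference the early genes lie at chr5:4488476-4490264 (CHS, AT5G13930, + strand), chr3:20430059-20431597 (CHI, AT3G55120, - strand), chr3:19025192-19026872 (F3H, AT3G51240, + strand), chr5:2560328-2563137 (F3'H, AT5G07990, + strand) and chr5:2803833-2805606 (FLS1, AT5G08640, + strand). The late genes lie at chr5:17164093-17166032 (DFR, AT5G42800), chr4:12004726-12006209 (LDOX, AT4G22880) and chr5:21936746-21938396 (UF3GT, AT5G54060), all on the - strand. PAP1 (AT1G56650) is at chr1:21233555-21235292 on the - strand and TT8 (AT4G09820) at chr4:6181881-6186523 on the + strand. F3H shares 1588 bases with AT3G51238, an antisense long non-coding RNA on the - strand, and CHS shares 2 bases with AT5G13940. The use of strand in the counting is not given, so reads of F3H and AT3G51238 cannot be told apart.

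The promoters of 4 genes are shown because 2 early and 2 late genes with different median levels carry the same letters. The levels of F3H and UF3GT per length overlapped between libraries. Each line is the 250 bases before the annotated start in RefSeq (TAIR10.1), 5′ to 3′ on the strand of the gene. Capitals mark the ACGT core, and the whole G-box CACGTG where it is present. The core is bound by bZIP factors such as HY5.
CHS (chr5:4488226-4488475, + strand): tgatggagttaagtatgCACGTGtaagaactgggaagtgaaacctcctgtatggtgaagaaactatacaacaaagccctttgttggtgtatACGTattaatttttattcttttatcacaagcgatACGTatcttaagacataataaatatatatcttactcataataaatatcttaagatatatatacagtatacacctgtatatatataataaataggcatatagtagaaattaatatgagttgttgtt
F3H (chr3:19024942-19025191, + strand): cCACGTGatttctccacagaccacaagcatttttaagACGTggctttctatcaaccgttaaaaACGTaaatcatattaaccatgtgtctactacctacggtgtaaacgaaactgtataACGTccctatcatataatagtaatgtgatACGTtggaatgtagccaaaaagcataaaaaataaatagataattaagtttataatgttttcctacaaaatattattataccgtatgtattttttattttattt
DFR (chr5:17166033-17166282, - strand): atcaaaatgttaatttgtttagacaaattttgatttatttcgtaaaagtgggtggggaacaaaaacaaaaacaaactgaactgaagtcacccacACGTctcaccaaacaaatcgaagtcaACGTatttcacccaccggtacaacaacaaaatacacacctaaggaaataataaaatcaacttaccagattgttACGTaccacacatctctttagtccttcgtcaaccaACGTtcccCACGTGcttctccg
UF3GT (chr5:21938397-21938646, - strand): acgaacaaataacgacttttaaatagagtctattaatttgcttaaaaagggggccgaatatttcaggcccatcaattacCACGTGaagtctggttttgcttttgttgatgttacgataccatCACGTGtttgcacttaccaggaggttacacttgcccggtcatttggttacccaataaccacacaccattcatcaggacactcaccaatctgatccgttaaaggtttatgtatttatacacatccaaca
A search of both strands found 3 ACGT in CHS, 5 in F3H, 5 in DFR and 2 in UF3GT. One G-box was present in each of CHS, F3H and DFR, 233, 249 and 14 bases before the start, and 2 in UF3GT, 171 and 128 bases before it. Every G-box contains an ACGT and is counted in both. TT8 had 2 ACGT and no G-box, while CHI, F3'H, FLS1, LDOX and PAP1 had neither. Among 27443 protein-coding genes, 44.1% held an ACGT and 6.49% a G-box in the same window, and 4.44% held 3 or more ACGT. The MYB motif ACCTACC was found in none of the 10 windows (1.16% of all promoters), and ACCAACC only in TT8 (2.69%). The annotated start was used as RefSeq gives it.

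Levels of different genes are compared per length, as CPM per kb of the gene model. CHS was the most abundant of the 10 genes in every library, at 316 and 41.7 CPM per kb in the FLV border libraries, 116 and 39.7 in those of WT border, and 20.6 and 9.72 in those of WT centre. It made up 54.7 to 83.4% of the summed per-length level of the 5 early genes. By their medians over the 6 libraries, CHI (5.17 CPM per kb), FLS1 (5.01) and F3H (2.26) followed, then F3'H (0.937). The ranges of neighbours in this order overlap, with CHI at 2.54 to 14.9 and FLS1 at 2.52 to 34.4. PAP1 had a median of 0.251, UF3GT 0.198, TT8 0.142, DFR 0.103 and LDOX 0.0919 CPM per kb, and all of these ranges overlap as well. In FLV border 1 the level of CHS per kb was above that of 98.9% of the 21852 tested genes, and in WT centre 2 above that of 75.8%. DFR, LDOX and TT8 were above no more than 15% of the tested genes in any library.

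Summed, the 5 early and the 3 late genes stood far apart in each library, and CHS made up most of the early sum. Single genes overlapped: in WT border 1 the early gene F3'H, at 0.297 CPM per kb, lay below the late gene UF3GT, at 0.481. The summed level of the early genes was 248 and 292 times that of the late genes in FLV border, 187 and 174 times in WT border, and 259 and 32.6 times in WT centre. The late sums were 1.53 and 0.188 CPM per kb in the FLV border libraries, 0.822 and 0.287 in those of WT border, and 0.119 and 0.546 in those of WT centre. These rest on few reads: DFR, LDOX and UF3GT together held 106 and 13 counts in the FLV border libraries, 41 and 11 in those of WT border, and 2 and 11 in those of WT centre.

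**Figure D1:**
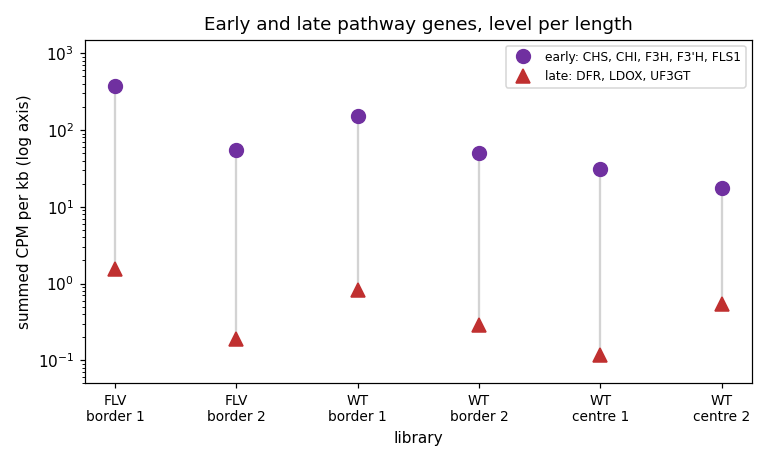
Summed level of the 5 early and the 3 late genes in each library, in CPM per kb on a log axis, with 1 pair of points per library. The early sum runs from 379 in FLV border 1 to 17.8 in WT centre 2, and the late sum stays between 0.119 and 1.53.

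**Figure D2:**
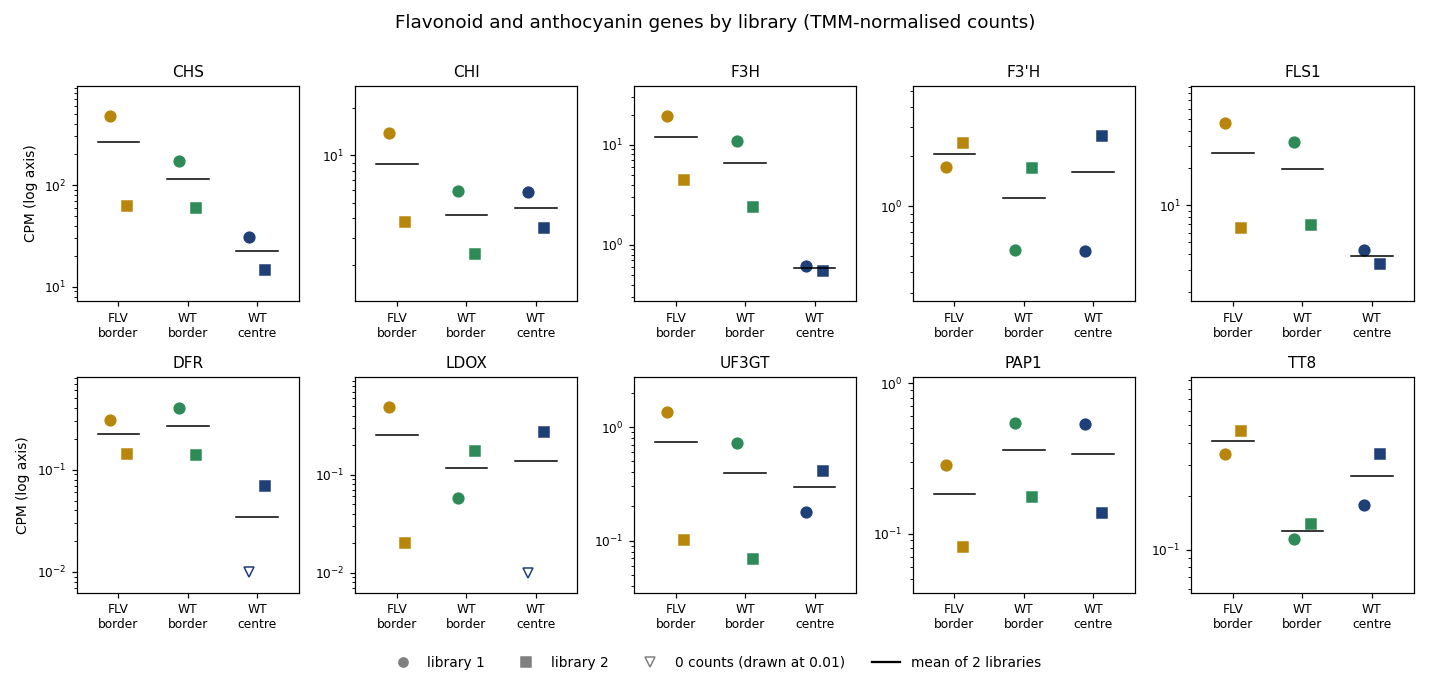
Normalised counts (CPM, log axis) of the 10 genes in the 6 libraries, with the mean of the 2 libraries as a line. Scales differ between panels, and 0 counts of DFR and LDOX in WT centre 1 are drawn at 0.01.

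The comparison of FLV border with WT border sets the white margin of the mutant against a green one. Early flavonoid genes had higher group means in the white margin, but the 2 libraries labelled FLV border differed from each other by more than the groups did for CHS (7.59 against 2.31 times), CHI (3.70 against 2.12), F3H (4.37 against 1.79) and FLS1 (7.08 against 1.33). No member was called in either direction by edgeR's quasi-likelihood test at an adjusted p under 0.05, where 0.0549% of all tested genes were called higher and 0.00458% lower (0.0595% in all), and none reached an unadjusted p under 0.05, where 5.53% did (2.97% higher). DESeq2 called none of them, where it called 0.549% of all tested genes higher and 0.339% lower, nor did limma-voom, where it called 0.0595% higher. Of the 9 members tested 7 had a positive log2 fold change, as did 51.6% of all tested genes, with a median of 0.87 against 0.02 over all tested genes.

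CHS, the entry enzyme, had 472 and 62.2 CPM in FLV border, set against 172 and 59.2 CPM in WT border. FLV border 1 was the highest library, FLV border 2 lay beside WT border 2, and the groups overlapped. The log2 fold change was 1.21 ± 0.90 (model SE, adjusted p = 1.0, edgeR).

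CHI, which closes the chalcone ring, had 13.9 and 3.76 CPM in FLV border, set against 5.96 and 2.36 CPM in WT border (log2 fold change 1.08 ± 0.71). FLS1, the flavonol synthase, had 45.9 and 6.49 CPM in FLV border, set against 32.6 and 6.88 CPM in WT border (0.41 ± 0.90). In both genes library 1 was well above library 2 in each group, and the groups overlapped.

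F3H had 19.3 and 4.43 CPM in FLV border, set against 10.9 and 2.40 CPM in WT border (log2 fold change 0.84 ± 0.81), again with overlap. Its antisense neighbour AT3G51238 had 15.4 and 3.09 CPM in FLV border, with 9.89 and 2.50 CPM in WT border (0.57 ± 0.84). How much of either value comes from the other gene was not tested.

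F3'H, which adds the hydroxyl group that separates quercetin and cyanidin types from kaempferol types, did not share the library order of the other early genes. It had 1.73 and 2.43 CPM in FLV border, set against 0.545 and 1.70 CPM in WT border (log2 fold change 0.89 ± 0.85). The groups were separated by a narrow gap, FLV border being the higher, and library 2 was the higher one in each group. With TT8 it was 1 of 2 tested members with no overlap in the upward direction, where 19.3% of all tested genes had none.

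Among the late genes, DFR, which commits dihydroflavonols to anthocyanins, had 0.306 and 0.142 CPM in FLV border, set against 0.401 and 0.139 CPM in WT border (log2 fold change -0.29 ± 0.86, but 0.23 with library totals). These are 15 and 7 counts against 14 and 4 counts, so the values cannot show a modest difference. UF3GT, which extends the anthocyanin sugar chain, had 1.37 and 0.101 CPM in FLV border, set against 0.717 and 0.0695 CPM in WT border (0.87 ± 1.21). It was high in library 1 and low in library 2 of both groups. LDOX, which forms anthocyanidins, was left out of the test by the filter on low counts, with 24 and 1 counts in FLV border, compared with 2 and 5 in WT border. The ratio of its summed counts per effective library size was 2.31, and its 95% counting interval ran from 0.971 to 6.32.

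The fitted values of the regulators had opposite signs. TT8 had 17 and 23 counts in FLV border, compared with 4 and 4 counts in WT border, or 0.347 and 0.465 CPM against 0.115 and 0.139 CPM. Its log2 fold change of 1.65 ± 0.75 was the largest among the tested members in this comparison, with an unadjusted p of 0.0556 and an adjusted p of 0.915 (edgeR). PAP1 had 14 and 4 counts in FLV border, compared with 19 and 5 counts in WT border (log2 fold change -0.97 ± 0.94), with overlap. Reads of PAP1 may be shared with its close homologue PAP2 in such counts.

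With 1 library left out, the sign of the log2 fold change turned for 7 of the 9 tested members. All of these had higher levels in library 1 than in library 2 of both groups. A fit without 1 library is uneven in library number, and the part of this in the signs was not tested. Set side by side by library number, FLV border was higher for CHS, CHI, F3H and UF3GT and lower for PAP1 in both numbers. Library numbers were not shown to pair the samples, so this is no repeat of the direction. In library 2 CHS was nearly level, at 41.7 against 39.7 CPM per kb. UF3GT (0.0678 against 0.0466) and PAP1 (0.0885 against 0.190) rest there on few reads. FLS1 and DFR lay on different sides in the 2 library numbers. Without FLV border 1 the log2 fold change was -0.91 for CHS, -0.16 for CHI, -0.60 for F3H, -1.62 for FLS1 and -1.94 for UF3GT. Without WT border 1 it was 2.18 for CHS and 1.93 for FLS1, and it turned positive for DFR, at 0.67, and for PAP1, at 0.08. FLS1 turned negative without WT border 2 as well, at -0.33, and DFR positive without FLV border 2, at 0.16. TT8 lay between 1.43 and 1.83 and F3'H between 0.29 and 1.91 over the 6 fits that leave out 1 library.

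Libraries of the same group differed widely. CHS was 7.59 times higher in library 1 than in library 2 in FLV border, 2.91 times in WT border and 2.11 times in WT centre. For FLS1 the factors were 7.08, 4.74 and 1.29, and for F3H 4.37, 4.53 and 1.13. CHS, CHI, F3H, FLS1 and PAP1 were higher in library 1 in all 3 groups, as were 15.4% of all tested genes. F3'H and TT8 were higher in library 2 in all 3 groups, as were 14.4% of all tested genes. The labels give no harvest time or batch for the library numbers.

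MYBL2, an inhibitor of anthocyanin synthesis, was chosen here after its values were seen because of its wide split between the library numbers. It had 0.612 and 15.5 CPM in the FLV border libraries, 2.35 and 27.2 CPM in those of WT border, and 3.46 and 53.3 CPM in those of WT centre. Library 2 was thus 25.3, 11.6 and 15.4 times higher than library 1, and MYBL2 was 1 of 12 tested genes that were at least 10 times higher in library 2 in all 3 groups. HY5, the light-signalling bZIP factor, was likewise chosen after its values were seen. It followed the opposite order, with 15.6 and 6.03 CPM in the FLV border libraries, 9.46 and 1.15 CPM in those of WT border, and 3.55 and 2.95 CPM in those of WT centre. The part of either in the levels of the early genes was not tested.

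The other genes of the pathway come from lists of enzymes and regulators drawn up by function, with earlier results of these data known. In FLV border against WT border, 0 of 8 general phenylpropanoid, 0 of 6 flavonol branch and 0 of 8 anthocyanin decoration and transport genes were called by edgeR, DESeq2 or limma-voom. With edgeR the counts at an unadjusted p under 0.05 were 0, 0 and 1, with 5.53% of all tested genes there. The medians of their log2 fold changes were -0.12, 0.09 and 0.34, and 0.41, 0.60 and 0.88 with library totals, where the median of all genes was 0.56. Among the general genes the largest differences by p were 4CL1, a coumarate-CoA ligase, at -0.46 ± 0.50, and PAL2, a phenylalanine ammonia-lyase, at -0.45 ± 0.50. UGT78D1, which adds rhamnose to flavonols, had 162 and 57 CPM in FLV border, set against 94.9 and 45.4 CPM in WT border (0.65 ± 0.62), and CHIL, a chalcone isomerase-like helper protein, had 0.81 ± 0.95.

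SAT, which puts sinapoyl groups on anthocyanins, had 3.14 and 10.2 CPM in FLV border, set against 1.75 and 1.98 CPM in WT border. Both FLV border libraries were higher, and the log2 fold change was 1.83 ± 0.66 (unadjusted p = 0.0223, adjusted p = 0.774, edgeR). UGT75C1, which glucosylates anthocyanins at another position, had the second smallest p of that list, at -0.85 ± 0.65.

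None of 7 tested activating regulators (of 10 listed) and none of 10 repressing regulators was called by edgeR, DESeq2 or limma-voom in FLV border against WT border, with 1 and 2 of them under an unadjusted p of 0.05 in edgeR, where 5.53% of all tested genes were. PAP2, the closest homologue of PAP1, had 4 and 1 counts in FLV border, compared with 24 and 11 counts in WT border. Both FLV border libraries were lower, with a ratio of summed counts per effective library size of 0.0924 (95% counting interval 0.0282 to 0.237) and a log2 fold change of -3.30 ± 0.88 (adjusted p = 0.483, edgeR). EGL3, a bHLH partner of the MYB factors, had 1.10 and 1.58 CPM in FLV border, set against 0.717 and 0.521 CPM in WT border (1.11 ± 0.67).

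Of the nitrate-induced LBD repressors of anthocyanin genes, LBD39 had 4.88 and 7.48 CPM in FLV border, set against 1.81 and 2.40 CPM in WT border (1.56 ± 0.47 on the log2 scale, adjusted p = 0.614, edgeR). LBD37 had 17.9 and 28.8 CPM in FLV border, set against 58.1 and 84.9 CPM in WT border (-1.62 ± 0.55, adjusted p = 0.724, edgeR). The groups did not overlap in either gene, and the values of these homologues lay on opposite sides.

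**Figure D3:**
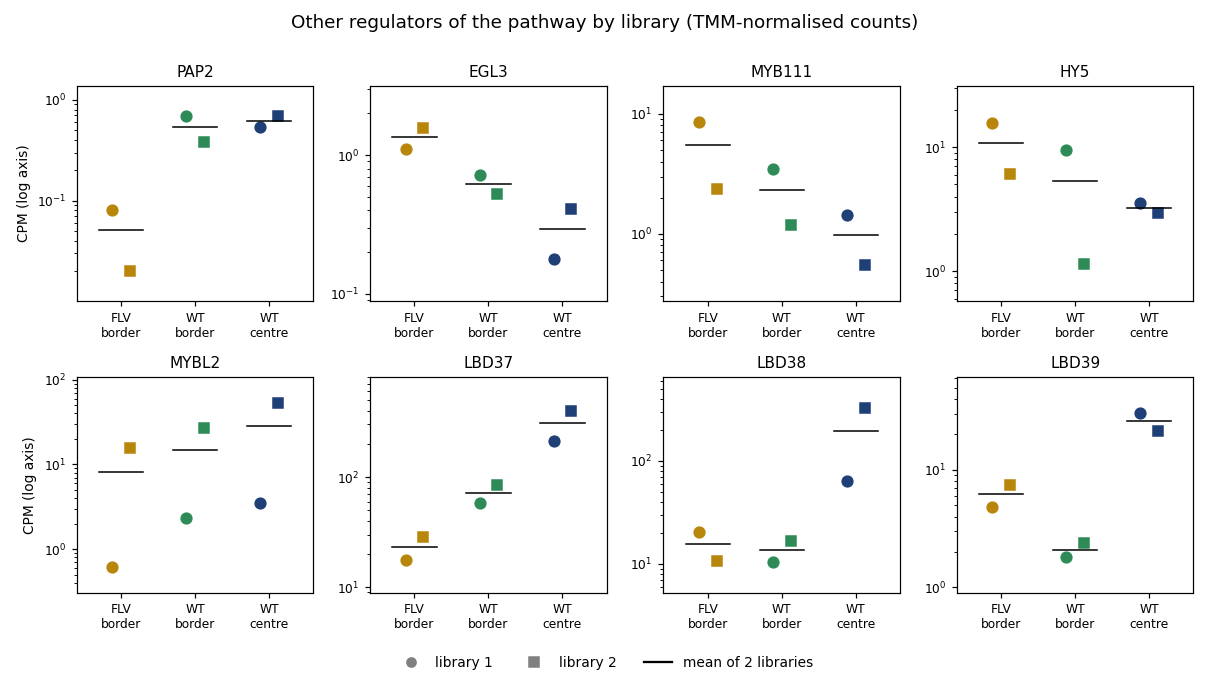
Normalised counts (CPM, log axis) of 8 other regulators in the 6 libraries, with the mean of the 2 libraries as a line. MYBL2 is higher in library 2 of each group, and LBD39 has its highest values, 30.6 and 21.3 CPM, in WT centre.

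Cell type markers were compared between the same groups. All 5 mesophyll markers had negative log2 fold changes, with RBCS2B, a Rubisco small subunit gene, at -2.96 ± 0.75 and RBCS1A at -1.81 ± 0.77, and 4 of 5 were lower without overlap, where 18.7% of all tested genes were. None was called by edgeR or limma-voom, 2 were under an unadjusted p of 0.05 with edgeR (5.53% of all tested genes), and DESeq2 called these 2 lower (0.339%). Of 6 epidermis markers 3 were higher without overlap (19.3% of all tested genes), and 0 were called by edgeR, DESeq2 or limma-voom or had an unadjusted edgeR p under 0.05, with LTP1, a lipid transfer protein gene, at 0.91 ± 0.58 and the homeobox gene ATML1 at 0.54 ± 0.46. Their summed level was 603 to 940 CPM in FLV border and 478 to 635 CPM in WT border, with none at 0. Of the 3 tested trichome markers 2 were higher without overlap (19.3% of all tested genes), with MYB23 at 0.29 ± 0.59 and TTG2 at 0.37 ± 0.85. Of these markers 0 were called by these tools or had an unadjusted edgeR p under 0.05. Trichome markers summed to 33.4 to 43.4 CPM in FLV border and 34.6 to 41.3 CPM in WT border, with GL1 at 0 in WT border 2. Of the seed coat genes only AHA10 (-0.71 ± 0.77) and TT12 (0.70 ± 1.01) were tested. The part of cell types in the values of the flavonoid genes was not tested.

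The comparison of WT border with WT centre sets 2 regions of wild-type leaves against each other. It shares the WT border libraries with the comparison above. CHS, F3H and FLS1 had 5.13, 11.3 and 5.12 times higher fitted levels in the margin, while CHI and F3'H did not share this. No member passed an adjusted p under 0.05 with edgeR, where 6.13% of all tested genes did, and 3 lay under an unadjusted p of 0.05, where 29.9% did (14.7% higher). DESeq2 called CHS and F3H higher, where it called 8.07% of all tested genes higher and 11% lower, and limma-voom called none, where it called 1.83% higher. Library totals called 4 members higher (34.1% of all tested genes), and no filter (4.03%) and a replicate block (2.53%) each called F3H. Of the 9 members tested, 4 were higher without overlap (30.6% of all tested genes) and 1 was lower without overlap (27.2%). The 3 with an unadjusted p under 0.05 were CHS, F3H and FLS1. Positive values were seen in 6 of the 9 and in 49.7% of all tested genes. The median log2 fold change of the 9 was 0.40, against -0.02 over all tested genes.

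CHS had 172 and 59.2 CPM in WT border against 30.7 and 14.5 CPM in WT centre. Both border libraries were above both centre libraries, and the log2 fold change was 2.36 ± 0.94 (adjusted p = 0.135, edgeR).

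F3H had 379 and 69 counts in WT border against 7 and 8 counts in WT centre, or 10.9 and 2.40 CPM against 0.622 and 0.549 CPM. At 3.50 ± 0.97 this was the largest log2 fold change among the tested members (adjusted p = 0.0624, edgeR, and 0.00284 with DESeq2). AT3G51238 on the other strand had 9.89 and 2.50 CPM in WT border against 0.355 and 0.824 CPM in WT centre (3.36 ± 1.0).

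FLS1 had 32.6 and 6.88 CPM in WT border against 4.35 and 3.37 CPM in WT centre (log2 fold change 2.36 ± 0.96, adjusted p = 0.142, edgeR), with no overlap. Without WT border 1 its value was 0.91, while CHS was at 1.47 and F3H at 2.11. The direction of these 3 genes was the same in each fit that leaves out 1 library.

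CHI had 5.96 and 2.36 CPM in WT border against 5.86 and 3.43 CPM in WT centre (-0.15 ± 0.72), and F3'H had 0.545 and 1.70 CPM against 0.533 and 2.68 CPM (-0.54 ± 0.87). The libraries of the groups lay among each other in both genes. Both changed sign with single libraries left out: CHI was at 0.45 without WT border 2 and 0.34 without WT centre 1, and F3'H at 0.14 without WT border 1 and 1.15 without WT centre 2.

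DFR had 14 and 4 counts in WT border against 0 and 1 counts in WT centre. The ratio of summed counts per effective library size was 7.30, and its 95% counting interval ran from 1.15 to 304. The log2 fold change was 2.72 ± 1.34 (adjusted p = 0.207, edgeR). UF3GT had 25 and 2 counts in WT border against 2 and 6 counts in WT centre (0.40 ± 1.39, and -1.98 without WT border 1), and LDOX had 2 and 5 counts against 0 and 4 counts. The ratio for LDOX was 0.710 (counting interval 0.180 to 3.31).

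TT8 had 0.115 and 0.139 CPM in WT border against 0.178 and 0.343 CPM in WT centre (log2 fold change -1.05 ± 0.86). That is 4 and 4 counts against 2 and 5 counts, too few to show a difference of this size. PAP1 had 0.545 and 0.174 CPM in WT border against 0.533 and 0.137 CPM in WT centre (0.17 ± 1.02, but -0.80 without WT border 1 and -0.46 without WT centre 2), with nearly the same values in library 1 and in library 2 of the groups.

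Scaling bears on this comparison more than on the other. The WT border libraries had TMM factors of 1.22 and 1.14, those of WT centre 0.551 and 0.439, and with library totals alone the median log2 fold change of all genes was 1.24. On that scale CHI, F3'H and TT8 had the opposite sign, at 1.09, 0.79 and 0.22. Relative to that median, CHS stood at 2.34, F3H at 3.54, FLS1 at 2.39, CHI at -0.16 and TT8 at -1.02 with library totals.

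**Figure D4:**
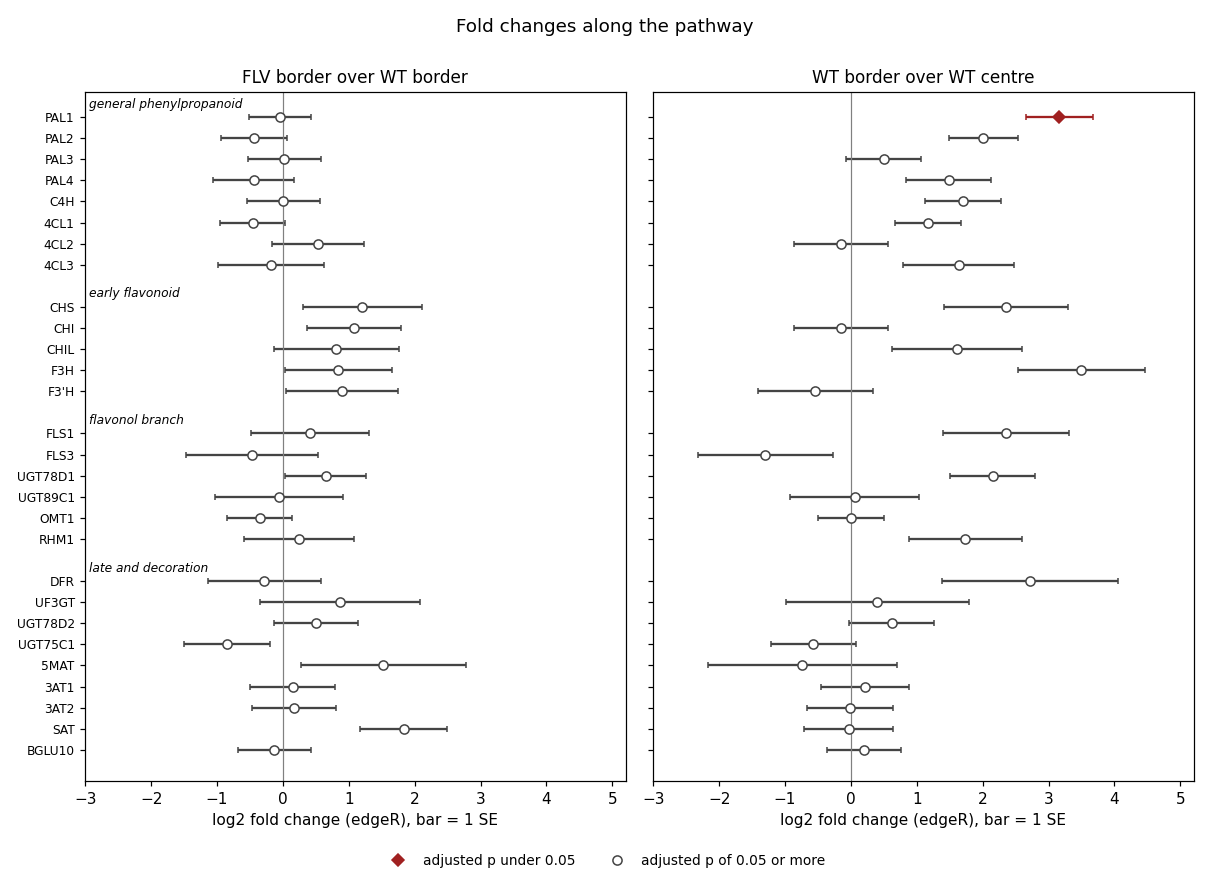
Log2 fold changes with 1 model SE along the pathway, for FLV border over WT border on the left and WT border over WT centre on the right. Among the genes drawn only PAL1, at 3.17 in the right panel, has an adjusted p under 0.05 (filled diamond). LDOX, which was not tested, and TT19, with 0 counts in WT centre, are not drawn.

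Of the 8 general phenylpropanoid genes, 1 was called higher and 0 lower in WT border than in WT centre, where edgeR called 3.13% of all tested genes higher. PAL1, which deaminates phenylalanine, rose, with 115 and 99.7 CPM in WT border against 12.5 and 11.4 CPM in WT centre (log2 fold change 3.17 ± 0.52, adjusted p = 0.0282, edgeR). PAL2 had 68.8 and 72.6 CPM in WT border against 10.8 and 24.2 CPM in WT centre (2.01 ± 0.52, adjusted p = 0.0539). Altogether 6 of the 8 genes were higher without overlap, where 30.6% of all tested genes were. The median log2 fold change was 1.56 (-0.02 over all genes), and 2.78 with library totals (1.24 over all genes). DESeq2 called PAL1, PAL2 and C4H, the cinnamate hydroxylase (8.07% of all tested genes higher), and limma-voom called PAL1. With no filter 2 were called higher (4.03%), and with library totals 7 (34.1%). PAL1 was not called without WT border 1, without WT border 2 or with a length offset.

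In the flavonol branch 0 of 6 genes were called by edgeR or limma-voom, and 1, UGT78D1, by DESeq2, which called 8.07% of all tested genes higher. UGT78D1 had 94.9 and 45.4 CPM in WT border against 19.0 and 12.6 CPM in WT centre (2.15 ± 0.64, adjusted p = 0.0729, edgeR), and RHM1, which supplies UDP-rhamnose, had 192 and 61.1 CPM against 56.1 and 19.9 CPM (1.74 ± 0.86). Both were higher without overlap, where 30.6% of all tested genes were. Of the 8 decoration and transport genes 0 were called by any of these tools, with 1 at an unadjusted p under 0.05 (29.9% of all tested genes). TT19, a glutathione transferase needed to store anthocyanins in the vacuole, had 19 and 4 counts in WT border and 0 counts in both WT centre libraries. With a floor of 3 counts put for the 2 centre libraries, the ratio per effective library size was 3.11. The lower limit of the 95% counting interval for the counts as they stand was 2.33. UGT78D2, which glucosylates anthocyanidins and flavonols, had 17.8 and 12.8 CPM in WT border against 4.80 and 15.1 CPM in WT centre (0.62 ± 0.64).

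Of the 7 tested activating regulators 0 were called by edgeR, DESeq2 or limma-voom, with 1 at an unadjusted p under 0.05 in edgeR (29.9% of all tested genes), and of the 10 repressing regulators 2 were called lower, where edgeR called 3% of all tested genes lower. LBD39 fell, with 1.81 and 2.40 CPM in WT border against 30.6 and 21.3 CPM in WT centre (log2 fold change -3.62 ± 0.50, adjusted p = 0.0262, edgeR). LBD38 fell as well, with 10.5 and 16.7 CPM in WT border against 64.2 and 324 CPM in WT centre (-3.84 ± 0.81, adjusted p = 0.0383). LBD37 had 58.1 and 84.9 CPM in WT border against 213 and 400 CPM in WT centre (-2.10 ± 0.55, adjusted p = 0.0556). LBD38 and LBD39 were not called without WT border 1 or without WT border 2. LBD38 was also not called without FLV border 1, without FLV border 2, with a length offset or with only the 4 libraries compared. DESeq2 called 4 of the 10 lower, LBD37, LBD38, LBD39 and MYB7, a MYB repressor, where it called 11% of all tested genes lower. Without WT centre 1 LBD37 was called by edgeR as well. MYB12, an activator of flavonol genes, had 0.0573 and 0.139 CPM in WT border against 0.888 and 0.343 CPM in WT centre (-2.61 ± 0.91, adjusted p = 0.0996). Its homologue MYB111 had 3.44 and 1.18 CPM in WT border against 1.42 and 0.549 CPM in WT centre (1.25 ± 0.87), with overlap.

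Of the 6 epidermis markers, 4 were higher without overlap in WT border than in WT centre (30.6% of all tested genes) and 2 were lower without overlap (27.2%). EdgeR called 2 of them higher (3.13% of all tested genes) and 0 lower. DESeq2 called ATML1 and PDF1 higher (8.07%) and CUT1 and LTP1 lower (11%). PDF1, an epidermal protein gene, rose by 7.06 ± 0.92 and ATML1 by 2.98 ± 0.50 (adjusted p = 0.0262 and 0.0303, edgeR). LTP1 was at -1.62 ± 0.59 and CUT1, a wax synthesis gene, at -1.52 ± 0.47, and the summed level of the list was 478 to 635 CPM in WT border and 713 to 1003 CPM in WT centre, with none at 0. PDF1 was not called without WT border 1, and ATML1 not without either WT border library or with a length offset. All 5 mesophyll markers had negative values, but 4 of them were positive without WT centre 2 and 2 with library totals. EdgeR and limma-voom called 0 of them, no edgeR p was under 0.05 before adjustment, and DESeq2 called RBCS1A lower. With edgeR, RBCS1A was at -1.33 ± 0.76 and LHCB1.3, a light-harvesting protein gene, at -1.54 ± 1.12. Trichome markers had 0 calls by edgeR, DESeq2 or limma-voom and 0 unadjusted edgeR p under 0.05, with MYB23 at 0.56 ± 0.62 and GL2 at -0.34 ± 0.65, and summed to 34.6 to 41.3 CPM in WT border and 17.3 to 75.9 CPM in WT centre. Of the seed coat genes, TT12 had -2.40 ± 1.04 and AHA10 -0.30 ± 0.79. The part of these markers in the values of CHS, F3H and FLS1 was not tested.

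Early and late genes were also set against each other as the mean log2 level of the 3 late genes minus that of the 5 early genes, with a prior count of 2. This difference was -5.26 and -5.64 in the FLV border libraries, -5.06 and -4.84 in those of WT border, and -5.00 and -3.49 in those of WT centre. Between group means it changed by -0.50 for FLV border against WT border and by -0.71 for WT border against WT centre, where the pooled SD between libraries of a group was 0.64. The second value was -1.48 without WT centre 1 and 0.06 without WT centre 2. At these late counts the prior count carries much of the level, so the values describe the libraries and no test was made.

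Among 10780 other genes with a mean of at least 5 CPM, the patterns most like the mean of the early genes over the 6 libraries were those of FT1, a fucosyltransferase gene (Pearson r = 0.995), UGD3, a UDP-glucose dehydrogenase gene (0.988), AT3G24530 (0.987), MTO3, an S-adenosylmethionine synthetase gene (0.987), and PP2A-3, a phosphatase subunit gene (0.986). For the late genes they were AT1G72480 (0.981), APY2, an apyrase gene (0.978), PAD1 (0.972), RABA2c (0.968) and AT5G19440 (0.967). These values of r describe 6 libraries that share their depth and scaling. They are the highest of 10780, so values near the top come with the choice. At the low counts of the late genes the prior count also carries much of their mean level. FT1 had 11.8 and 5.44 CPM in the FLV border libraries, 7.22 and 4.17 CPM in those of WT border, and 3.55 and 3.23 CPM in those of WT centre, a narrower range than that of CHS.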

How the data were processed

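The authors deposited raw counts of reads per gene model, 1 table per library. The program was sam2pkm, per the file headers, which also give the model length. Per the submitters' processing notes the build was TAIR10. The libraries were stranded and single-end, per the labels. Aligner, multiply mapped reads and use of strand are not given in the sources used here.

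The 15 rRNA loci were left out. Genes passing filterByExpr of edgeR 4.0.16 (minimum count 10) were TMM-scaled, which left 21852. All 6 libraries entered 1 quasi-likelihood fit (robust=TRUE) with a term for each group, leaving 3 residual degrees of freedom. P-values are two-sided and Benjamini-Hochberg adjusted over all genes tested. The procedure was tested on simulated data. With 2 libraries against 2, precision is low. Counting intervals are exact, at 95%, and cover counting error only.

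The members and gene lists were chosen with earlier results of these data known. Named are all members and, of each other list, called genes and the 2 smallest p per comparison. DESeq2 1.42.0 and limma 3.58.1 (voom) were alternatives, beside other scalings, filters, a length offset, a replicate block and each library left out. Positions and promoters are from RefSeq TAIR10.1.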

Additional observations from a re-analysis of the deposited data

How the results depend on the processing

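With 2 libraries a group, single libraries carry much of each value. In FLV border against WT border no alternative called a member. Leaving out 1 library gave -0.91 to 2.18 for CHS, -0.16 to 1.90 for CHI, -0.60 to 2.31 for F3H, -1.62 to 1.93 for FLS1, -1.94 to 3.33 for UF3GT, -0.94 to 0.67 for DFR and -2.12 to 0.077 for PAP1 (log2 fold change). DFR was at 0.23 with library totals. In WT border against WT centre, leaving out 1 library gave -0.89 to 0.45 for CHI, -1.49 to 1.15 for F3'H, -1.98 to 1.32 for UF3GT, -0.80 to 1.44 for PAP1, and -1.48 to 0.058 for late minus early genes. It called 0 members in each case. Library totals called 4 members higher (34.1% of all tested genes), DESeq2 2 (8.07%), no filter 1 (F3H, 4.03%) and the replicate block 1 (2.53%). CHI was at 1.09 with library totals, 0.14 with no filter and 0.093 with a length offset; F3'H was at 0.79 and TT8 at 0.22 with library totals; UF3GT was at -0.49 with the block and -0.29 with limma-voom. The cause was not tested.

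Library numbers were not shown to pair the samples. Over the tested genes, library 1 minus library 2 correlated at 0.37 between WT border and FLV border. The correlation was 0.08 between WT centre and WT border and 0.05 between WT centre and FLV border. With the replicate block F3H had 3.10 (adjusted p = 0.0477, edgeR), LBD37 was called lower in WT border than in WT centre beside LBD38 and LBD39, and 552 genes were called higher and 528 lower in WT border than in WT centre, but 0 in FLV border against WT border (1313 at an unadjusted p under 0.05).

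Over all genes, 12 were called higher and 1 lower in FLV border than in WT border, against 120 and 74 with DESeq2, 17 and 6 with no filter, 14 and 4 with only the 4 libraries compared, 2 and 0 with a length offset, and 0 to 23 higher with 1 library left out. In WT border against WT centre 683 were higher and 656 lower, against 1763 and 2404 with DESeq2, 7448 and 350 with library totals, 1343 and 712 with no filter, 103 and 234 with only the 4 libraries compared, 400 and 458 with limma-voom, 119 and 123 with a length offset, and 1 to 1513 higher with 1 library left out. With only the 4 libraries compared, DFR, UF3GT, PAP1 and TT8 could not be fitted in WT border against WT centre. Counts below about 20 limit DFR, LDOX, PAP1 and TT8. They also limit UF3GT, with summed counts of 27 in WT border and 8 in WT centre. F3H in WT centre and F3'H in WT centre 1 are limited in the same way.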
